A study of Mus musculus with 21 samples.

Results

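The shores described here are the stretches that flank CpG-rich unmethylated regions in the DNA that stayed in nucleosomes of mouse sperm. The series holds 21 samples of chromatin, RNA and bisulfite-treated DNA from sperm and round spermatids of C57BL/6 mice, and its title relates the retention of nucleosomes to the density and methylation of CpGs. The 1 library analysed here is the bisulfite library of nucleosome-associated sperm DNA; the labels give the strain C57BL/6, no treatment and no age for the sperm donors. Motile sperm were collected by swim-up, and their chromatin was digested to mononucleosomes with MNase, which cuts DNA between nucleosomes. There was no replicate, so no difference was tested and no p-value is given. Intervals are 95% intervals for counting error only, and they are too narrow because 1 read counts at each CpG it covers.

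Shores were found from the methylation readout itself. On the autosomes, CpGs with 5 or more reads were marked low where the methylated reads of the CpG and its neighbour on each side made up less than 50% of their reads. A run of 30 or more low CpGs with gaps of at most 500 bp was a core, and the members are the listed CpGs of up to 19 reads outside all cores and within 2000 bp of the nearest core edge. There were 9272 cores with 18544 edges, and the shores held 380906 CpGs of the 15544856 listed in the table. Distances are in bp from the edge, and a bin is named by its limits, of which outside the edge the lower is not included. The level is the share of methylated reads in percent, pooled over the CpGs of a bin. Because the level and the read minimum set the edges, the profiles near an edge describe the members and are not evidence for a boundary. The CpGs with 1 to 4 reads played no part in finding cores, although they share reads with CpGs that did, and their values are given beside those of all members.

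CpG islands are stretches dense in CpG that often overlap promoters and stay unmethylated, while most CpGs elsewhere in the mammalian genome are methylated. Their shores are the flanks over which unmethylated DNA gives way to methylated DNA, and in somatic tissues shores are known for methylation that varies between cell types. In sperm most histones are replaced by protamines, and the nucleosomes that remain are known to lie preferentially at CpG-rich, unmethylated DNA.

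The rule itself asks for many CpGs of low level, so the low level and density of the cores describe them and are no check of their label. Their median length was 1520 bp (quartiles 1121 and 2041), their listed CpGs had a pooled level of 3.71%, and on average 18.6 listed CpGs lay within 100 bp on each side of a core CpG, itself included, against 4.53 for all autosomal CpGs. The whole table counts 60995624 CpG reads. The shores held 1201056 of them, and the median shore CpG had 3. A single read was all that 23.5% of the shore CpGs had, 19.9% reached 5 reads and 1.61% reached 10. A further 118 CpGs of the shores had over 19 reads and were left out.

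The pooled methylation level was higher in each successive window of 500 bp outside the edges, and in the last of them it was below the level of distant DNA. Over the 0 to 500 bp inside the edges the pooled level was 4.74%. In the first 50 bp outside it was 23.4% (23.0 to 23.7, 19173 CpGs), against 11.0% in the last 50 bp inside (52269 CpGs). Over the first 500 bp outside it was 35.1% (132761 CpGs), at 500 to 1000 bp 59.7%, at 1000 to 1500 bp 72.4% and at 1500 to 2000 bp 76.6% (76924 CpGs). CpGs more than 10000 bp from every core had a level of 83.7% (12604100 CpGs). CpGs with 1 to 4 reads gave 25.3% over the first 500 bp and 78.5% at 1500 to 2000 bp, against 84.9% beyond 10000 bp. The level in the first 500 bp depended on the reads asked of a core CpG, and it was 58.5% with a minimum of 3 reads and 6.25% with a minimum of 10. Both sides of the cores gave like values, with 35.3% on the side of lower coordinates and 34.8% on the side of higher coordinates over the first 500 bp.

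Edges came about in 2 ways, and the levels at a given distance beyond them differed. At 6283 edges (33.9%) the next CpG of 5 or more reads, within 500 bp, was not low. These are called CpG-closed. At the other 12261 edges (66.1%) there was no CpG of 5 or more reads within 500 bp, so the run ended for want of depth. These are called gap-closed, and by construction the first 500 bp beyond them hold only CpGs with 1 to 4 reads.

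**Figure D1:**
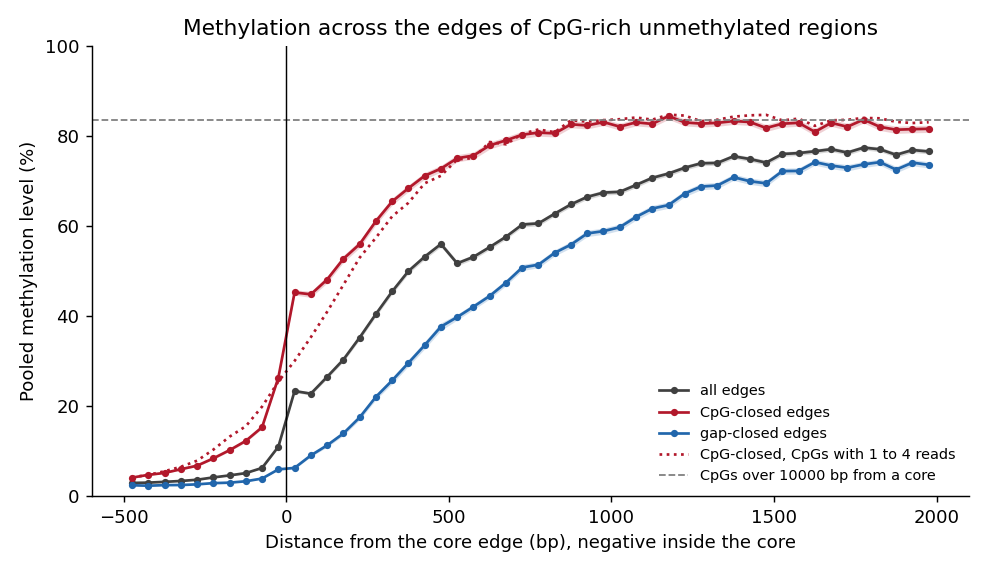
Pooled methylation level (%) in 50 bp bins by distance from the core edge (bp, negative inside the core), for all edges, CpG-closed edges and gap-closed edges, with 95% Wilson bands. The dotted line shows CpG-closed edges from CpGs with 1 to 4 reads and the dashed line CpGs over 10000 bp from a core (83.7%). The level reaches 50% at 150 to 200 bp beyond CpG-closed edges and at 700 to 750 bp beyond gap-closed edges, and the dip of the line for all edges after 500 bp comes from the limit on gaps.

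Beyond CpG-closed edges methylation rose over a short distance. The level was already 15.3% at 50 to 100 bp inside the edge and 26.3% at 0 to 50 bp inside. It was 45.3% at 0 to 50 bp outside, first passed 50% at 150 to 200 bp (52.7%), 70% at 400 to 450 bp (71.2%) and 80% at 700 to 750 bp (80.3%). From 1000 to 1500 bp it was 82.9% (82.7 to 83.1) and from 1500 to 2000 bp 82.2% (81.9 to 82.4), within 2 points of the level beyond 10000 bp. CpGs with 1 to 4 reads rose less across the edge. Their level was 25.5% at 0 to 50 bp inside, 30.05% at 0 to 50 bp outside, 35.3% at 50 to 100 bp and 71.2% at 450 to 500 bp.

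Beyond gap-closed edges the unmethylated state went on well past the edge. The level was 5.96% at 0 to 50 bp inside and 6.29% at 0 to 50 bp outside, so it hardly changed across the edge itself. It was 17.0% over the first 500 bp, 49.9% at 500 to 1000 bp, 66.4% at 1000 to 1500 bp and 73.3% at 1500 to 2000 bp (73.1 to 73.5). The 80% mark was not reached within 2000 bp. Compared at CpGs of the same 1 to 4 reads, the level was 50.9% beyond CpG-closed and 17.0% beyond gap-closed edges over the first 500 bp, 79.9% and 53.1% at 500 to 1000 bp, and 83.4% and 75.7% at 1500 to 2000 bp.

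The difference between both kinds of edge was also seen around the same cores. In 3673 cores 1 edge was of each kind. Over the first 500 bp their CpG-closed sides had a level of 57.3% and their gap-closed sides 19.7%, and at 500 to 1000 bp the levels were 79.96% and 55.2%. In 2424 of these cores both sides had 20 or more reads at 500 to 2000 bp, and the CpG-closed side was the more methylated in 1604 of them (66.2%), the less methylated in 812 and equal in 8. The median difference was 6.40 points (quartiles -4.10 and 24.3). Both kinds of edge were defined by what lay within 500 bp, so the values beyond 500 bp are the ones that the definition did not use directly. They still depend on it indirectly. A gap-closed edge was placed where depth ended, and a CpG-closed edge where a CpG that was not low followed.

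A measure that depends less on the depth of single CpGs is the first group of 5 consecutive listed CpGs outside the edge whose pooled level was 50% or more. Its middle CpG lay a median of 264 bp beyond CpG-closed edges (quartiles 159 and 404, 6205 shores with at least 5 CpGs) and 596 bp beyond gap-closed edges (quartiles 383 and 937, 11953 shores). Within 1000 bp it was found beyond 97.7% of the CpG-closed and 77.7% of the gap-closed edges. Within 2000 bp it was found in 99.5% and 90.5%. These distances still start at the edge, which lies where depth ended at gap-closed edges. A CpG-closed edge asks for a CpG that was not low within 500 bp. The order of both medians therefore follows in part from how the edges were classed.

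To see how gradual the change is around that point, it was located on every second CpG of a shore and the level was read from the CpGs in between, in 5674 shores that allowed this. The level was 18.1% at 450 to 500 bp before the point, 43.1% at 50 to 100 bp before, 60.3% at 0 to 50 bp after, 64.7% at 50 to 100 bp after and 79.0% at 450 to 500 bp after. Counted from this point, both kinds of edge were close next to it. The point is set by a level of 50%, so this closeness follows from its definition. CpG-closed shores had 52.3% at 0 to 50 bp before and 64.6% at 50 to 100 bp after, and gap-closed shores 48.5% and 64.7%. Farther away they differed, with 38.4% and 13.4% at 450 to 500 bp before and 83.7% and 77.6% at 450 to 500 bp after. The values before rest on 221 CpGs of CpG-closed and 1615 CpGs of gap-closed shores. Only shores whose point lay that far out hold such CpGs. The point is known only to within 5 of the CpGs used, which widens the change, and the CpGs in between share reads with those that set the point, which sharpens it. The steepness at the point is therefore not read from these values.

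Coverage, the number of reads per listed CpG, fell from core to shore, but much of its course next to the edge follows from the rule. At 0 to 500 bp inside the edges the mean was 5.45 reads and at 0 to 50 bp inside 6.28, where the edge CpG itself must have 5 or more. Over the first 500 bp outside it was 4.06 beyond CpG-closed edges (41943 CpGs) and 2.25 beyond gap-closed edges (90818 CpGs), where no CpG can exceed 4. For all edges it rose from 2.85 at 450 to 500 bp to 3.35 at 500 to 550 bp, and the pooled level fell there from 56.0% to 51.7%, both at the end of the allowed gap.

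Past 500 bp coverage was little above that of distant DNA and declined slowly. The mean was 3.41 reads at 500 to 1000 bp, 3.32 at 1000 to 1500 bp and 3.24 at 1500 to 2000 bp, against 3.11 beyond 10000 bp. Both kinds of edge were close here, with 3.43 reads beyond CpG-closed and 3.28 beyond gap-closed edges over 500 to 2000 bp. At 6 to 9 listed CpGs within 100 bp on each side the mean was 3.76 reads at 500 to 2000 bp and 3.58 beyond 10000 bp, and in each of the other 4 density classes the shore also had the higher mean. Shores that stayed unmethylated were the best covered. The 716 shores with a level under 20% at 500 to 2000 bp (20 or more reads) had a mean of 3.85 reads, the 5721 with 20% to 80% had 3.36 and the 8102 over 80% had 3.36. The unmethylated shores were also denser, with 9.84 listed CpGs within 100 bp on each side on average against 3.59 in the methylated ones, and the part of density in this difference was not tested.

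**Figure D2:**
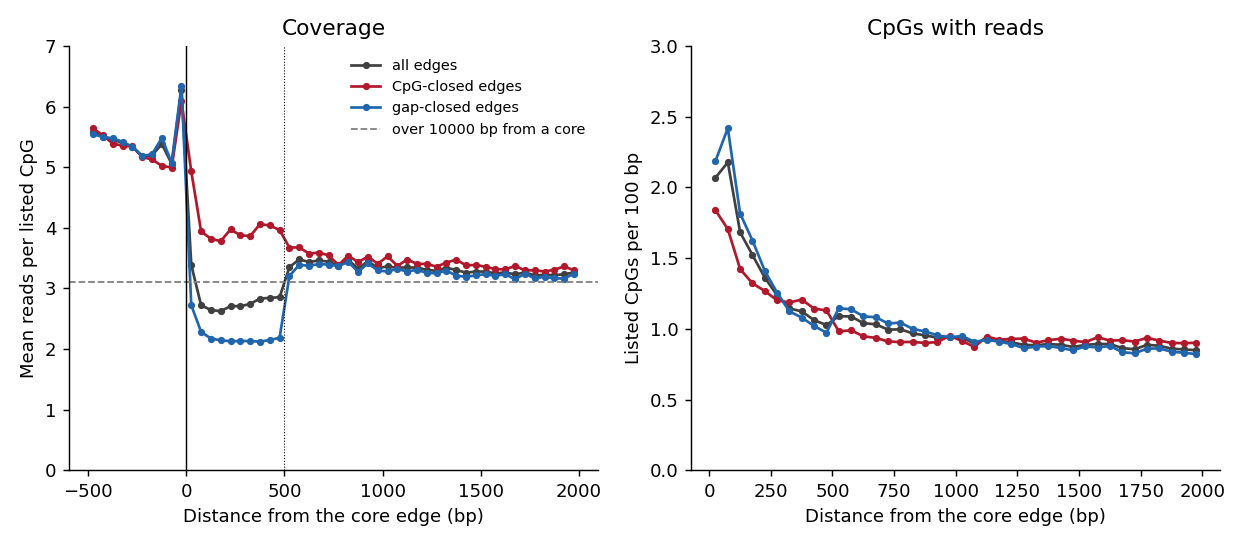
Left, mean reads per listed CpG in 50 bp bins by distance from the core edge (bp), with the dashed line at the 3.11 reads of CpGs over 10000 bp from a core and the dotted line at 500 bp. Right, listed CpGs per 100 bp of shore. Coverage beyond gap-closed edges is 2.72 reads in the first bin and 2.12 to 2.28 from there up to 500 bp, where the rule allows no CpG of 5 or more reads, and above 3 reads after it.

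The density of listed CpGs fell over the same stretch. There were 2.12 listed CpGs per 100 bp in the first 100 bp outside the edges, 1.60 at 100 to 200 bp, 1.04 at 400 to 500 bp and 0.872 at 1500 to 2000 bp. Close to the edge, gap-closed shores were the denser, with 2.30 listed CpGs per 100 bp in the first 100 bp against 1.77 beyond CpG-closed edges. At 1500 to 2000 bp the order was the other way round, with 0.849 and 0.914. CpGs without reads are not listed, so each of these densities is a lower bound.

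At equal density, the shores as a whole were less methylated than distant CpGs in all 5 density classes, but shores beyond CpG-closed edges were not so in the densest ones. Over the first 500 bp and at 6 to 9 listed CpGs within 100 bp on each side, the level was 30.2% in the shores. It was 77.9% beyond 10000 bp, a difference of -47.8 points. The difference was -27.8 with cores from CpGs of 3 or more reads and -61.4 with 10 or more. Level and depth placed the edges, so this difference next to them is tied to the rule and is only a description. In this density class the CpG-closed shores had 52.4% and the gap-closed shores 10.6%. At 500 to 2000 bp the CpG-closed shores came close to distant DNA, with 85.6% against 87.3% at 1 or 2 CpGs, 83.8% against 86.3% at 3 to 5 and 76.3% against 77.9% at 6 to 9. The gap-closed shores differed from distant DNA by -10.8, -17.0 and -29.2 points in these classes.

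In the dense classes the order turned round beyond CpG-closed edges. At 10 to 14 listed CpGs the level at 500 to 2000 bp was 53.7% (52.7 to 54.6, 2713 CpGs), against 50.3% beyond 10000 bp, a difference of 3.34 points, while over the first 500 bp it was 38.8%. At 15 or more listed CpGs the level was 26.7% over the first 500 bp (25.7 to 27.8, 1592 CpGs) and 29.3% at 500 to 2000 bp (27.4 to 31.3, 478 CpGs), both above the 9.33% of equally dense CpGs beyond 10000 bp. Beyond gap-closed edges this class had 2.37% and 4.94%. A CpG-closed edge asks for a CpG that was not low within 500 bp, and low CpGs before it belong to the core. Distant CpGs were not chosen in this way, and of those in this class with 5 or more reads 84.3% were under 20%. The order in the dense classes is therefore tied to the rule and is only a description.

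**Figure D3:**
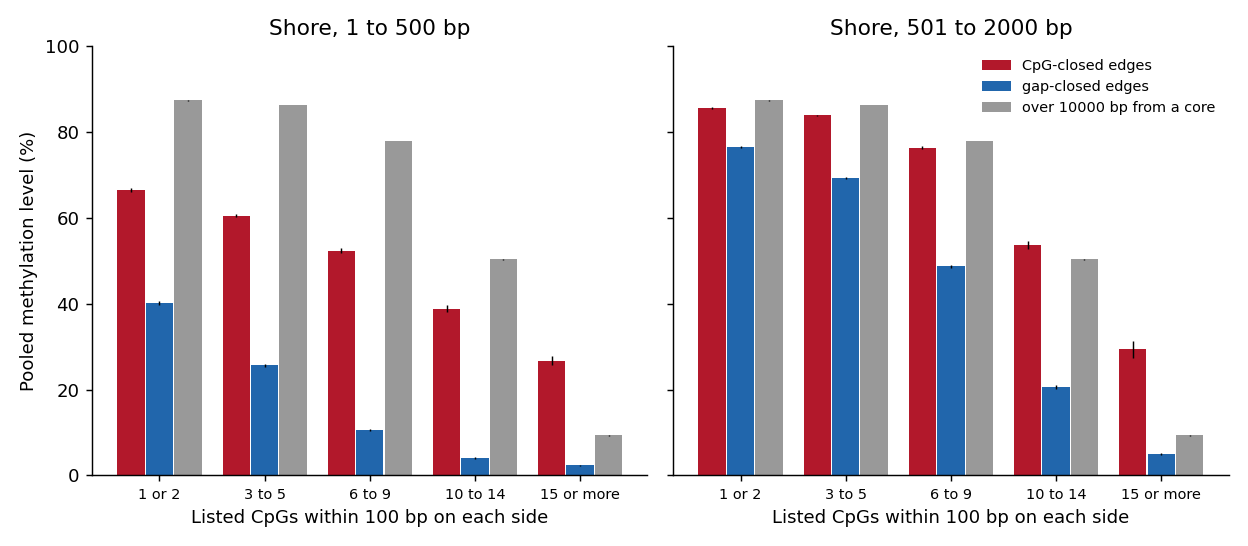
Pooled methylation level (%) by class of local CpG density (listed CpGs up to 100 bp away to either side), for shore CpGs beyond CpG-closed and gap-closed edges and for CpGs over 10000 bp from a core, with 95% Wilson intervals. At 500 to 2000 bp the bars of CpG-closed shores are within 3 points of distant CpGs in the 3 sparsest classes, whereas those of gap-closed shores are lower in every class.

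An intermediate level can come from CpGs that are each methylated in a part of the sperm, or from a mixture of methylated and unmethylated CpGs. To tell how far the reads of single CpGs differ among themselves, the share of pairs of reads on the same CpG that disagreed was set beside the share for pairs drawn from all CpGs of the bin. If every CpG had the level of its bin both would be equal, and if every CpG were fully methylated or unmethylated the first would be 0. In the first 100 bp beyond CpG-closed edges, reads of the same CpG disagreed in 45.6% of pairs and reads at large in 49.96%, a ratio of 0.913. Of the CpGs with 5 or more reads there, 85.2% had a level from 20% to 80%, 7.04% were lower and 7.72% higher. The rule places CpGs of mixed reads at these edges. CpGs with 2 to 4 reads, which it did not use, gave a ratio of 0.780.

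Farther out and beyond gap-closed edges, the intermediate level of the pooled bins was more of a mixture of unlike CpGs, some of them in unlike shores. At 500 to 1000 bp beyond gap-closed edges the level was 49.9%, close to that at the CpG-closed edge, but reads of the same CpG disagreed in 25.9% of pairs against 49.7% at large, a ratio of 0.520. There 31.3% of the CpGs with 5 or more reads were under 20%, 43.4% from 20% to 80% and 25.4% over 80%. CpGs with 2 to 4 reads gave 0.534. Of these gap-closed shores, those holding another run of 4 to 29 low CpGs had a level of 13.9% and a ratio of 0.752. Those without such a run had 64.2% and 0.676, so both ratios were above that of the pooled bin. At 1500 to 2000 bp the ratio was 0.617 beyond CpG-closed and 0.481 beyond gap-closed edges, against 0.633 beyond 10000 bp. Shores without such a run had 0.803 and 0.773 there, and shores with one 0.586 and 0.543. Beyond 10000 bp such runs were not set apart, and their part in the lower ratios was not tested. Copies of 1 molecule made by PCR carry the same call, so they lower the first share everywhere, and how many there are was not measured.

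**Figure D4:**
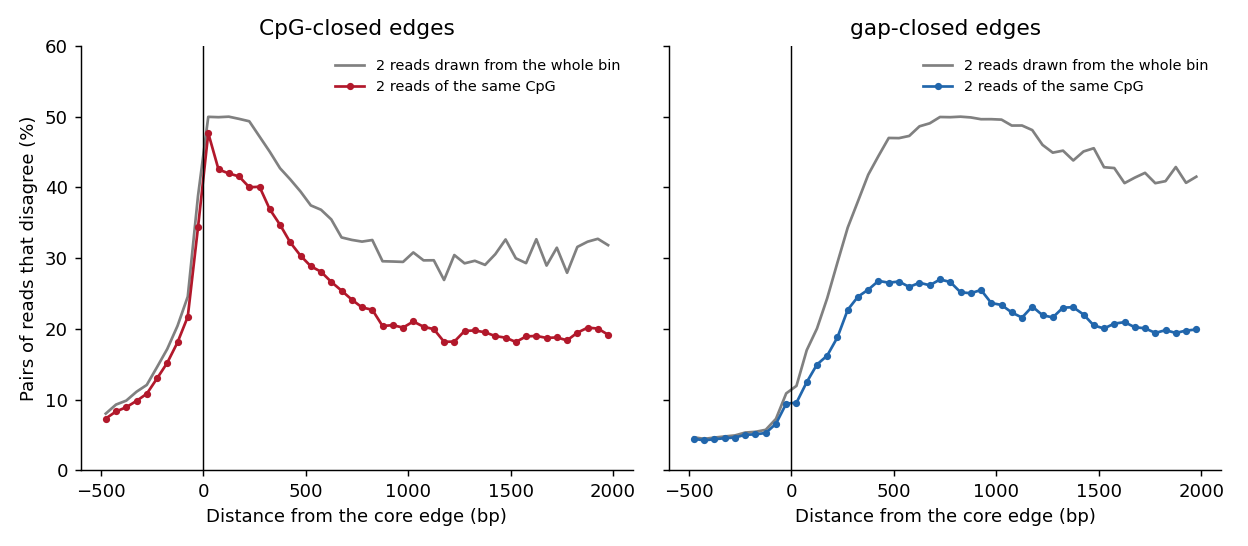
Share of pairs of reads that disagree on methylation (%) by distance from the core edge (bp), for pairs on the same CpG (coloured) and pairs drawn from all CpGs of the 50 bp bin (grey). Both lines nearly meet at CpG-closed edges (47.7% and 49.97% at 0 to 50 bp), while at 500 to 550 bp beyond gap-closed edges they stand at 26.7% and 47.0%.

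Shores differed widely from one another. Over the first 500 bp, 7071 shores had 20 or more reads, with a median level of 34.5% (quartiles 5% and 61.9%), and 41.0% of them were under 20%. That share was 80.3% of the gap-closed and 2.73% of the CpG-closed shores, a contrast that the kinds of edge carry by definition. At 500 to 2000 bp, 14539 shores had 20 or more reads, with a median level of 82.9% (quartiles 65.5% and 91.7%). Of these 55.7% were over 80% methylated, 39.3% lay between 20% and 80% and 4.92% were under 20%. Among gap-closed shores 7.23% were under 20%, and among CpG-closed shores 0.770%. A shore at this limit of 20 reads has a wide interval of its own, and the median was 44 reads from 14 CpGs.

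Other unmethylated stretches lay inside some shores. In 1437 shores (7.75%) there was another run of 4 to 29 low CpGs, at a median of 177 bp from the edge in the 348 CpG-closed shores and of 676 bp in the 1089 gap-closed shores, where the rule allows none within 500 bp. These shores had a level of 19.8% at 500 to 1000 bp and 32.4% at 1500 to 2000 bp. The other 17107 shores had 71.6% and 85.5%. The runs are themselves stretches of low level, so the difference is built in. CpGs beyond 10000 bp, where such runs were not set apart, had 83.7%. Shores facing another core within 4000 bp (968 edges, 5.22%) had 36.3% at 500 to 1000 bp, against 60.8% for those with none.

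Shores of the longest cores were the least methylated past 500 bp, but the level did not follow core length step by step. Around the 1613 cores under 1000 bp the level rose from 15.2% at 0 to 250 bp to 54.2% at 500 to 1000 bp and 78.7% at 1500 to 2000 bp. Around the 636 cores of 3000 bp or more it started higher, at 32.0%, and rose less, to 47.1% and 58.5%. The 5206 cores from 1000 to under 2000 bp had 28.0%, 63.0% and 79.3% in these windows, and the 1817 cores from 2000 to under 3000 bp had 36.2%, 60.8% and 74.0%. At 1500 to 2000 bp, from the shortest to the longest class, the level was 83.6%, 83.9%, 79.9% and 73.4% beyond CpG-closed edges. Beyond gap-closed edges it was 76.9%, 76.5%, 69.1% and 50.4%. Cores just inside the rule, of 30 to 34 low CpGs, had a shore level of 35.2% over the first 500 bp and 76.7% at 1500 to 2000 bp (1231 cores), and runs just outside it, of 25 to 29, had 34.5% and 77.4% (1498 runs).

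**Figure D5:**
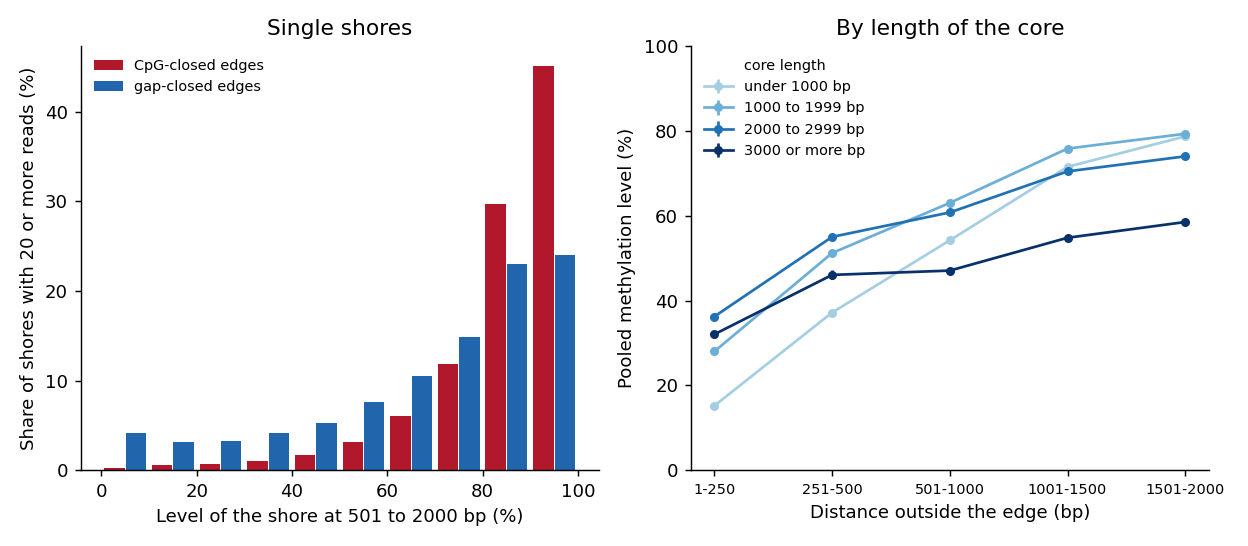
Left, share (%) of shores with 20 or more reads in each 10% step of their level at 500 to 2000 bp, for CpG-closed (5193) and gap-closed (9346) shores. Right, pooled level (%) by distance outside the edge (bp) for 4 classes of core length, with 95% Wilson intervals; shores of cores of 3000 bp or more reach 58.5% and those of cores under 1000 bp 78.7%.

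The sides of 1 core were only loosely alike. At 500 to 2000 bp, 5858 cores had 20 or more reads on both sides, and the Spearman correlation of both levels was 0.168 across cores that share 1 library, a description with no test. The median difference between the sides was 14.05 points (quartiles 5.75 and 29.8), and it was over 50 points in 608 cores (10.4%). Over the first 500 bp it was over 50 points in 280 of 1492 cores (18.8%), but in 15 of the 516 with both edges CpG-closed (2.91%) and 16 of the 419 with both gap-closed (3.82%), so most of the 280 had 1 edge of each kind. Each side of a core may also differ by counting error alone at this depth.

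The 19 autosomes gave like values. The level over the first 500 bp was 35.0% ± 2.11 (SD over 19 autosomes, from 31.4% on chromosome 6 to 39.1% on chromosome 7), and at 500 to 2000 bp 69.1% ± 2.51 (from 65.2% on chromosome 13 to 75.8% on chromosome 16). CpG-closed edges had 56.8% ± 2.05 and gap-closed edges 17.0% ± 1.08 over the first 500 bp. The lowest autosome of the former, at 51.97%, was above the highest of the latter, at 19.1%. The kinds of edge were classed within these same 500 bp, so they carry this separation by definition. Autosomes are parts of 1 library and not replicates.

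Single shores are given with mm9 coordinates as in the table, which may be shifted by 1 bp, with Wilson intervals. The rule set for naming them asked for 100 reads in each of both windows on both sides, and 1 core met it, chromosome 2 from 166930195 to 166931175, whose own level was 26.8%. Its shore on the lower side had 33.1% over the first 500 bp (25.2 to 42.0, 118 reads), 74.1% at 500 to 1000 bp (61.6 to 83.7) and 35.9% at 1000 to 2000 bp (29.9 to 42.5). Its shore on the higher side had 53.5% (44.9 to 62.0, 127 reads), 73.4% (63.7 to 81.3) and 97.3% (86.2 to 99.5). The lower side thus turned back to an intermediate level beyond 1000 bp, while the higher side went on rising.

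With a minimum of 40 reads, set after the values were seen, 65 cores could be ranked by the same criteria. The highest level in the first 500 bp was on the higher side of the core on chromosome 2 from 179905389 to 179907366. That core had a level of 1.78%, and its shore had 91.7% in the first 500 bp (81.9 to 96.4, 60 reads from 9 CpGs). The other side of that core was nearly as high, at 90.5% (77.9 to 96.2). These shores show a change from unmethylated core to methylated flank within the first 500 bp on both sides.

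At the other end stood shores that stayed unmethylated to 2000 bp. Below the core on chromosome 13 from 42146757 to 42147931 the gap-closed shore had 0 of 50 methylated reads in the first 500 bp, which allows a level of up to 7.13%. Over its whole 2000 bp the level was 0.330% (0.0583 to 1.85, 303 reads from 69 CpGs), and its CpGs past 500 bp averaged 5.06 ± 2.24 reads (SD over 50 CpGs). Above the core on chromosome 5 from 143575527 to 143577222 the level over 2000 bp was 1.10% (0.471 to 2.55, 454 reads from 133 CpGs). Both edges were gap-closed, and the unmethylated stretch reached past the core on that side.

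The sides differed most at the core on chromosome 1 from 75312923 to 75314045. Its CpG-closed lower side had 81.4% in the first 500 bp (69.6 to 89.3, 59 reads). Its gap-closed higher side had 1.22% (0.216 to 6.59, 82 reads), 2.94% at 500 to 1000 bp (0.521 to 14.9, 34 reads) and 100% at 1000 to 2000 bp (89.3 to 100, 32 reads). On that side the unmethylated stretch thus went on past the edge and gave way to methylated DNA further out. The best covered shore, below the core on chromosome 1 from 90173251 to 90174957, had 14.2 ± 2.95 reads per CpG in the first 500 bp (SD over 5 CpGs) and 60.6% (48.9 to 71.1), with 9 further CpGs above 19 reads left out.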

How the data were processed

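The authors deposited 2 raw counts per CpG of the bisulfite library, total and methylated reads, per the file headers. Bowtie and mm9 are named in the submitters' processing notes. Alignment settings, duplicate handling and bisulfite conversion: not given in the sources used here. An mm9 genome and annotation were not used here, so no genes or sequences are given. The other 20 samples were not analysed here.

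Cores, edges and distances were computed with Python 3.11.15, numpy 2.4.6 and pandas 2.3.3, correlations with scipy 1.17.1 and figures with matplotlib 3.10.9. The steps were tested on simulated reads. No result of that test is given, so nothing is concluded from it for gap-closed edges, CpGs with few reads or read disagreement. Levels are pooled reads with Wilson intervals. The median of 3 reads per CpG limits single CpGs, so bins were pooled. The table records no molecular identifiers, so reads may include PCR copies. Disagreement is weighted by pairs of reads. Shores were named by the rule in the text: the 3 highest levels in the first 500 bp, the 3 lowest over 2000 bp, the 3 cores whose sides differ most and the 3 best covered shores, on cores with no other core within 4000 bp. The members and lists were chosen with earlier results of these data known. The division of edges by how they closed was made after seeing the data.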

Additional observations from a re-analysis of the deposited data

How the results depend on the processing

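No paired analysis was possible because 1 library without a replicate was analysed. The setting that counts only CpG-closed edges was added after seeing the data. Of 50 alternative values, 13 stayed within the counting interval of the main value (for the distance, within 1 bin of 50 bp), 37 moved and 0 reversed. Only the difference at equal density can change sign, so the values of the other results could not reverse. The level in the first 500 bp moved most with the reads asked of a core CpG, and at a median of 3 reads per CpG the place of an edge is no more certain than that.

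The level of the first 500 bp (35.1%) became 58.5% with cores from CpGs of 3 or more reads, 6.25% with 10 or more, 26.7% with a running level under 30%, 17.1% with gaps of at most 250 bp, 25.3% from CpGs with 1 to 4 reads, 35.6% without shores facing another core, 37.3% without shores holding another low run and 56.7% for CpG-closed edges only. In the same order, the first bin at 50% or more (400 bp) began at 100, 1600, 600, 900 and 500 bp, and at 150 bp for CpG-closed edges only. Mean reads (2.82) became 3.11, 4.15, 3.11, 3.06 and 2.31, with 2.84 for runs of 50 or more, 2.79 without shores holding another low run and 4.06 for CpG-closed edges only. Disagreement of reads on 1 CpG (32.9%) became 39.3% and 9.09% with 3 and 10 reads, 20.1% with gaps of 250 bp, 22.2% from CpGs with 1 to 4 reads and 39.95% for CpG-closed edges only. The difference at equal density (-47.8 points) became -27.8, -61.4, -53.8, -60.8 and -60.6 points, with -45.0 for runs of 50 or more, -38.2 without a limit on reads, -47.3 and -47.0 without shores facing another core or holding a low run, and -25.6 for CpG-closed edges only. The share of CpG-closed edges was 67.4% with 3 or more reads and 2.80% with 10 or more.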

Other observations

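The X chromosome had 36 cores by the same rule, and 8 of their 72 edges were CpG-closed (11.1%). Their shores had a level of 11.1% in the first 500 bp (9.86 to 12.5, 1019 CpGs), 26.5% at 500 to 1000 bp (24.0 to 29.1) and 44.6% at 1000 to 2000 bp (41.7 to 47.6). The mean was 2.36 reads per CpG at 500 to 2000 bp, against 3.33 on the autosomes. The part of depth in the lower level was not tested.

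Coverage of neighbouring CpGs in the shores past 500 bp was correlated in the manner of distant DNA rather than of cores, as a description across pairs of CpGs of 1 library. In the cores the correlation was 0.126 at 41 to 60 bp and higher, 0.191, at 81 to 100 bp. It was 0.227 and 0.176 beyond CpG-closed edges, 0.211 and 0.149 beyond gap-closed edges, and 0.201 and 0.136 beyond 10000 bp. The rise from 41 to 60 bp up to 81 to 100 bp seen in cores was thus not found in either set of shores.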
